A study of Phormium tenax with 2 samples.

Results

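The MYB transcription factor unigenes described here are 5 of the 75265 unigenes assembled from leaves of Phormium tenax (New Zealand flax). They are c56737.graph_c0, c57500.graph_c0, c61891.graph_c0, c37958.graph_c0 and c38669.graph_c0, and they were chosen because the study names them as MYB unigenes, either in its family comparison or among the genes it took to qRT-PCR. The study had picked them from the same libraries by their difference between drought and control, so the size and direction of that difference are described here without a test. The study counts more MYB unigenes as differing than it names. Those without a printed identifier are not covered here. All 5 unigenes were higher in the drought library, by 10.4-fold to 16.5-fold in the 4 that had reads in both libraries and by at least 12.3-fold, against a floor of 3 reads, in the remaining one, which had no reads in the control library.

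The drought library (T01) came from leaf blades of plants aged 1 year whose soil was dried to 25% of its saturated water content, and the control library (T02) from plants of the same age kept at 70%. Both were harvested 10 days after the drought soil had reached its target moisture, while the moisture of the control soil was left unchanged. Each library was made from the RNA of 3 plants mixed in equal quantity, which leaves 1 library per condition and no measure of the spread between plants. No source used here gives the genotype of the seedlings. Whether more cells expressed a gene or each cell held more of its RNA cannot be told apart in such whole-leaf RNA.

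MYB proteins are transcription factors that bind DNA through one or more helical MYB repeats, and in plants they form one of the larger families of regulators. Members of the family are known to act on phenylpropanoid and flavonoid synthesis, on the fate of epidermal cells and on responses to abscisic acid, cold and water deficit. The study places c61891.graph_c0 close to CpMYB10, a MYB factor of the resurrection plant Craterostigma plantagineum that is linked to desiccation tolerance. For the other 4 unigenes the family name is the only identity used here, since the deposited tables hold identifiers without gene names. For the same reason the leaf identity of the samples was not checked against marker genes.

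The unigene sequences were not used here. The primers designed for qRT-PCR of c57500.graph_c0 and c38669.graph_c0 are shown because they are the only stretches at hand that tie these identifiers to bases, and because c38669.graph_c0 is the member whose control value was 0. They are written in lower case from the 5′ end, and none of their bases is singled out by capitals.
c57500.graph_c0 forward: ttgaggtgtgggaagagttg
c57500.graph_c0 reverse: ttctctggtgaagttgcctc
c38669.graph_c0 forward: gccctacatgtatcaagctagc
c38669.graph_c0 reverse: catccaagttccatagactccc
The primers of c57500.graph_c0 are 20 bases long with 10 G or C bases each, and those of c38669.graph_c0 are 22 bases long with 11 G or C bases each. Their place within the unigenes was not looked up.

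The estimated counts, rounded to whole reads, gave a total of 17744093 for drought and 18540664 for control. Reads were found for 60256 unigenes under drought and for 50459 under control, and for 71410 in at least 1 of them. Levels are given as TPM, which divides by the length of the unigene and can therefore be set between unigenes. Differences between the libraries are given as log2FC, the log2 ratio of drought over control reads after TMM scaling (a factor that allows for a few abundant transcripts taking unequal shares of the libraries) and the addition of 1 read to each. Intervals are 95% intervals, exact Poisson for a level and exact Clopper-Pearson for a ratio, and they cover counting error only, with PCR copies counted as separate reads. Folds of scaled reads and the intervals of ratios leave out the added read. A fold and its log2FC therefore differ where reads are few.

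The unigene c56737.graph_c0 was the most abundant of the MYB unigenes, with 562.69 TPM in the drought library and 46.49 TPM in the control library. These levels rest on 14821 drought reads and 1219 control reads, and their intervals were 554 to 572 TPM in drought and 43.9 to 49.2 TPM in control. The drought level was above the control level by far more than the counting error of either. As few as 156 unigenes had a higher TPM in the drought library, so that 99.7% of the unigenes detected there were at or below it, whereas 3628 were higher in the control library, where 92.8% were at or below it. Its scaled reads were 10.4-fold higher in drought (interval 9.82 to 11.0), a log2FC of 3.38. Unigenes that exceeded it in both drought TPM and log2FC numbered 26.

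The second in abundance, c57500.graph_c0, had 58.11 TPM in the drought library and 4.58 TPM in the control library. It was counted with 916 reads in drought and 71 in control. The intervals of the levels, 54.4 to 62.0 TPM in drought and 3.58 to 5.78 TPM in control, lie well apart. Its scaled reads were 11.0-fold higher in drought (interval 8.67 to 14.3, or 3.12 to 3.84 on the log2 scale), and its log2FC was 3.45. In the order of all detected unigenes, 95.1% were at or below it in drought and 65.7% in control.

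The unigene c61891.graph_c0, which the study likens to CpMYB10, had 26.02 TPM in the drought library and 1.40 TPM in the control library, from 412 drought reads and 25 control reads. The interval was 23.5 to 28.6 TPM in drought and 0.91 to 2.07 TPM in control. From the upper part of the detected unigenes in drought, where 88.0% were at or below it, its place moved to the lower part in control, where 28.0% were. The scaled reads were 14.1-fold higher in drought (interval 9.42 to 22.1), with a log2FC of 3.77.

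The levels of c37958.graph_c0 were 5.85 TPM in the drought library and 0.61 TPM in the control library, but the control value stands on 4 reads against 77 in drought. Its control interval reached 0.17 to 1.56 TPM, and its drought interval was 4.62 to 7.31 TPM. The ranges did not overlap, although the size of the difference was poorly fixed, with a scaled ratio of 16.5 and an interval of 6.18 to 62.0. The log2FC, with 1 read added to each library, was 3.76. Of the detected unigenes, 71.2% were at or below it in drought and 7.77% in control.

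In c38669.graph_c0 there were 43 reads in the drought library, or 5.12 TPM (interval 3.71 to 6.90), and 0 reads in the control library. By the convention of a floor of 3 reads for a count of 0, its control level was at most 0.364 TPM, and the wider exact Poisson interval reaches 3.69 reads, or 0.447 TPM. Against the floor of 3 reads, taken for the 1 control library, its reads were at least 12.3-fold higher in drought, a log2 bound of 3.62. That bound takes the 43 drought reads without error. The exact Clopper-Pearson interval, which includes it, begins at a log2 ratio of 3.26 and has no upper end. A lack of control reads was not rare at this depth. Of the 1439 unigenes whose reads over both libraries came to 40 to 49, a range chosen around this unigene, 78 (5.42%) had 0 control reads and 21 (1.46%) had 0 drought reads. Over all unigenes, 20951 had reads in drought and none in control, and 244 of these had 43 or more drought reads.

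**Figure D1:**
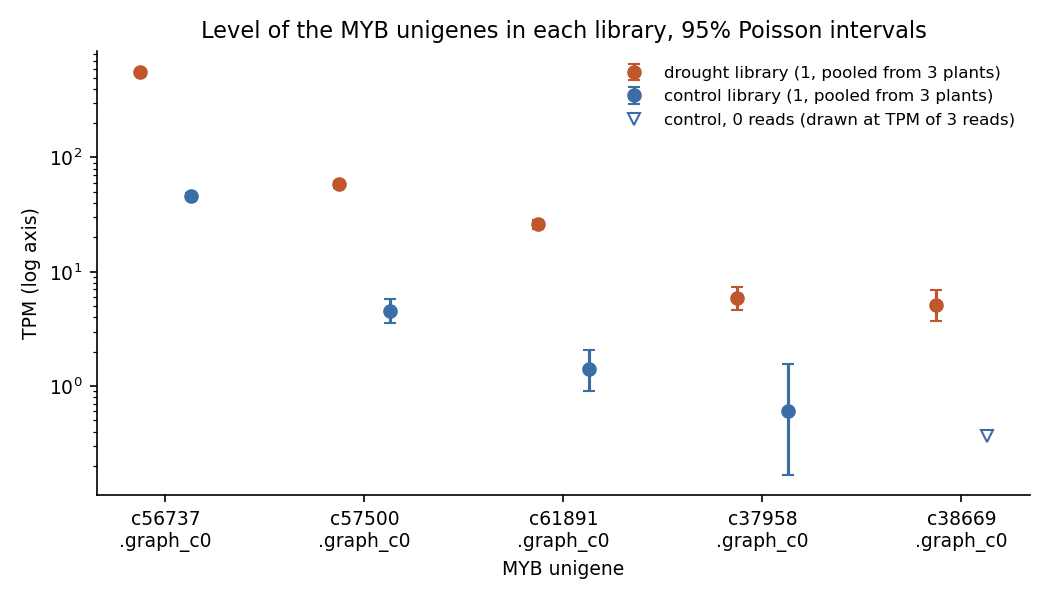
Levels of the 5 MYB unigenes in TPM on a log axis, with the drought library left of the control library and bars for the 95% Poisson interval of the reads. Each drought point lies above its control point, and the open triangle marks the TPM of 3 reads (0.364) for c38669.graph_c0, which had 0 control reads.

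The order of the levels was the same in both libraries. In the drought library c56737.graph_c0 stood 9.68-fold above c57500.graph_c0, which stood 2.23-fold above c61891.graph_c0, and this in turn was 4.45-fold above c37958.graph_c0. The intervals of these neighbours did not overlap. The lowest pair, c37958.graph_c0 and c38669.graph_c0, differed by 1.14-fold in drought, and their intervals overlapped. In the control library c56737.graph_c0 was 10.2-fold above c57500.graph_c0 and this was 3.27-fold above c61891.graph_c0, while the intervals of the 3 least abundant unigenes overlapped from each to the next. The 5 unigenes together reached 657.79 TPM in the drought library and 53.08 TPM in the control library. Most of that was c56737.graph_c0, which made up 85.5% of the sum in drought and 87.6% in control. The summed level of these 5 is thus in the main a statement about 1 unigene. The other 4 summed to 95.1 TPM in drought and 6.59 TPM in control.

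Although the levels spanned 2 orders of magnitude, the log2FC values lay close together. Among the 4 unigenes with reads in both libraries they were between 3.38 and 3.77, and the intervals of all 6 pairs overlapped. Without the added read the log2 ratios of these 4 ran from 3.38 to 4.04, and their log2 TPM ratios from 3.26 to 4.22. These intervals cover counting error only, and their overlap is no test of a difference in response. Without replicate libraries such a difference could not be tested at any depth. Nor does the overlap show that these unigenes responded alike, because the interval of c37958.graph_c0 alone ran from 2.63 to 5.95. The narrowest interval was that of c56737.graph_c0, from 3.30 to 3.47.

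All 5 unigenes had a log2FC of at least 2, which is the fold threshold of the study, while 27.6% of the 71410 unigenes with reads were past it in the same direction and 17.5% were past -2 in the other. Since this contrast served to pick the 5, the count is a description and nothing is read from it. Their median log2FC was 3.76, or 3.62 with c38669.graph_c0 at its lower bound, beside a median of 0.38 over all unigenes with reads. The background depended on the number of reads. Of the unigenes with at least 10 and under 100 reads, the range of c37958.graph_c0 and c38669.graph_c0, 25.4% had a log2FC of at least 2. The share was 7.56% among those with at least 100 and under 1000 reads, where c57500.graph_c0 and c61891.graph_c0 belong, and 6.69% among those with 1000 reads or more, where c56737.graph_c0 belongs. Over all 71410 unigenes, 5.45% had a higher log2FC than c56737.graph_c0, 5.40% than c57500.graph_c0, 3.35% than c61891.graph_c0 and likewise 3.35% than c37958.graph_c0. These shares pool all depths and do not rank a member among unigenes of like read number. Both c61891.graph_c0 and c37958.graph_c0 had a log2FC between 3.5 and 4. Between those values lay 0.685% of the unigenes in the read range of c61891.graph_c0 and 6.92% in that of c37958.graph_c0.

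**Figure D2:**
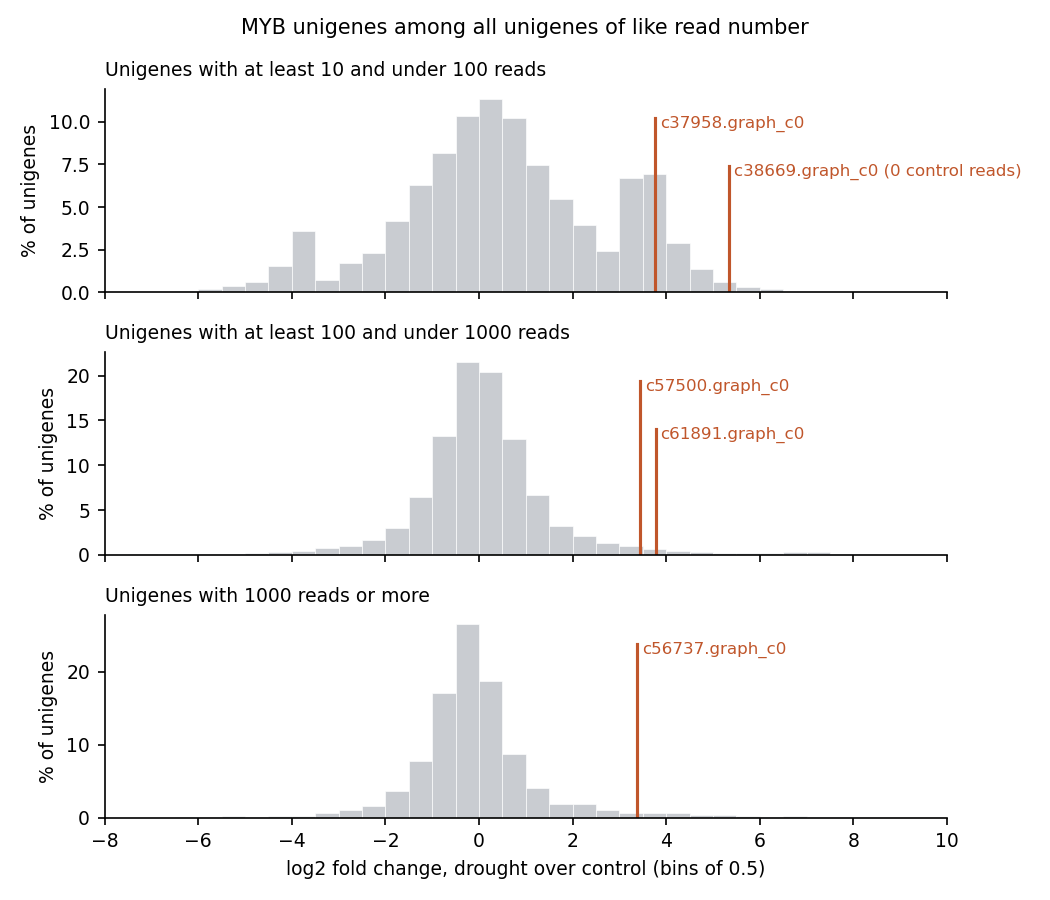
Share of unigenes (%) by log2 fold change of drought over control in bins of 0.5, in 3 panels by the reads of a unigene over both libraries (under 100, under 1000, and 1000 or more), with the MYB unigenes of each range as vertical lines. The panel of fewest reads has side peaks made mostly of unigenes with reads in 1 library only, and c38669.graph_c0, drawn with 1 read added to its 0, lies beyond the upper one.

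With TMM scaling 61.2% of the unigenes past the threshold in either direction were higher in drought, and with total reads alone 72.0% were. The choice of scaling shifted the log2 ratio of every unigene by -0.21 (upper quartile) to 0.29 (total reads) from TMM. For c56737.graph_c0 this shift was larger than its counting interval, with a log2FC of 3.16 under upper-quartile factors and 3.67 under total reads. For the other unigenes with reads in both libraries the shift stayed inside the interval.

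**Figure D3:**
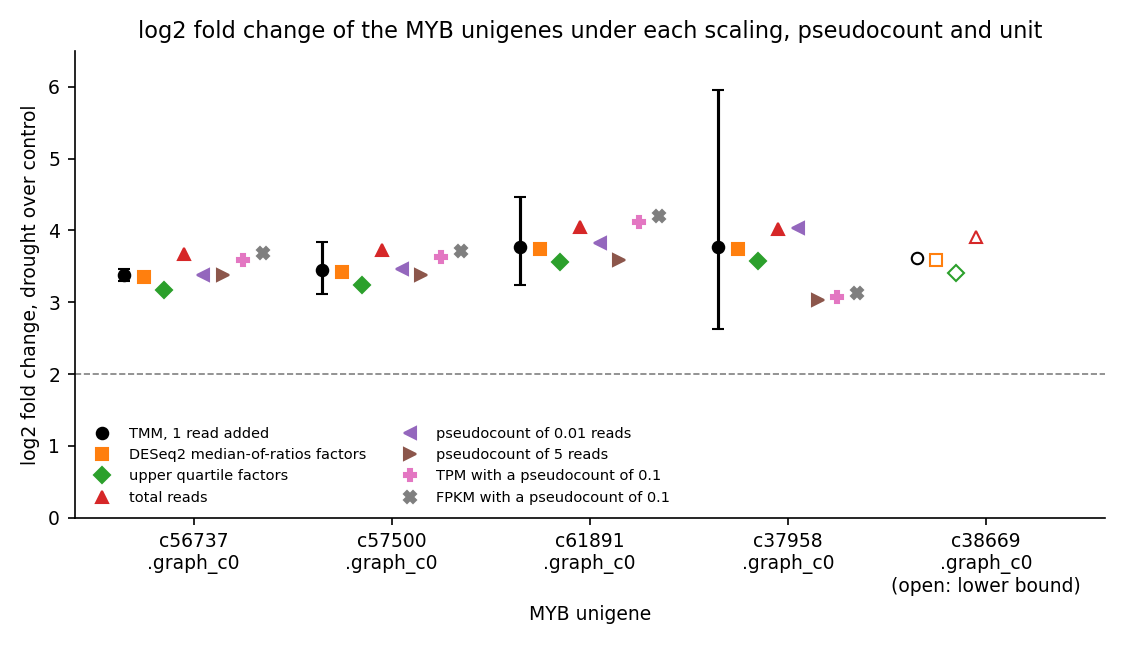
log2 fold change (drought over control) of the 5 MYB unigenes under TMM with 1 read added (black), other scalings, other pseudocounts, and TPM or FPKM in place of scaled reads. Black bars are the 95% Clopper-Pearson interval of the ratio without the added read. Every point lies above the dashed line at 2. For c38669.graph_c0 the open symbols give the lower bound against 3 control reads, between 3.40 and 3.90, and are drawn for the scalings only.

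Several transcripts were assembled for 4 of the 5 unigenes, 3 each for c56737.graph_c0, c61891.graph_c0 and c37958.graph_c0 and 2 for c57500.graph_c0. Only c38669.graph_c0 (586 bp) had 1 transcript. The length that the tables give for a unigene with several transcripts can differ between libraries, as a mean weighted by transcript abundance would, although the sources used here do not state how it was made. The length of c37958.graph_c0 was 875.44 bp in drought and 482 bp in control, or 1.82-fold longer in drought. Of the 18853 unigenes with several transcripts and reads in both libraries, 1.01% had lengths at least this far apart in either direction, and among the 3407 of them with under 10 reads in a library the share was 1.85%. The control length rests on 4 reads. The length of c61891.graph_c0 was 1039.14 bp in drought and 1179.03 bp in control, a 1.13-fold difference that 23.5% of those unigenes equalled or exceeded. The lengths of c56737.graph_c0 (1676.98 bp in drought and 1696.15 bp in control) and c57500.graph_c0 (1034.03 bp in drought and 1034.34 bp in control) were nearly equal between the libraries.

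**Figure D4:**
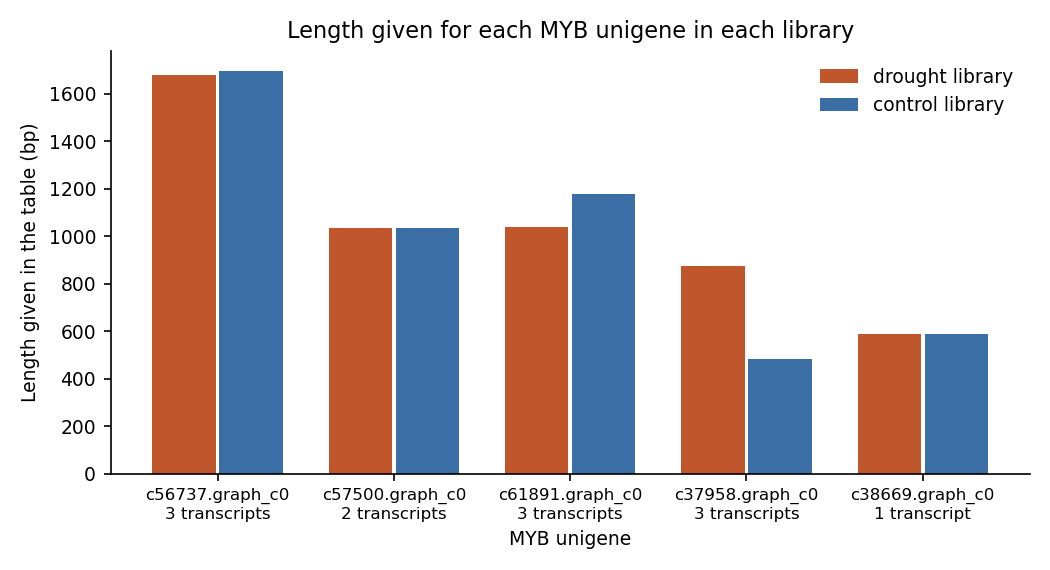
Length in bp given by the deposited tables for each MYB unigene, with the drought library left of the control library and the number of assembled transcripts under each name. The bars of c37958.graph_c0 differ most (875.44 bp in drought and 482 bp in control), and those of c38669.graph_c0 are equal at 586 bp.

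Because TPM divides by these lengths, the change in length entered the ratio of levels. The TPM of c37958.graph_c0 was 9.59-fold higher in drought, whereas its scaled reads were 16.5-fold higher, a disagreement of 1.72-fold that comes with an effective length (the length open to reads) 1.97 times as long in the drought table. On the log2 scale its TPM ratio minus its read ratio was -0.78. Where each library held 10 reads or more, the TPM ratio was typically above the read ratio, by a median of 0.20 over 22370 unigenes. The offset was 0.22 for c56737.graph_c0 and 0.20 for c57500.graph_c0, close to that median, and 0.40 for c61891.graph_c0, whose TPM was 18.6-fold higher in drought. Among the 4, c37958.graph_c0 had the highest ratio of scaled reads and the lowest ratio of TPM. Its place also moved with the read added, on account of its 4 control reads. With 1 read added it stood just below c61891.graph_c0 (3.76 and 3.77), and with 5 reads added its log2FC of 3.03 was the lowest of the 4.

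The estimated count was not a whole number for c56737.graph_c0 (14821.36 in drought and 1218.79 in control), nor in the drought library for c57500.graph_c0 (915.96) and c61891.graph_c0 (412.35). Such fractions arise when a read is divided between similar sequences. Rounding to the nearest whole read changes any count by less than 1 read. The fractions do not tell how many reads were divided in this way. None of the 5 shared its Trinity component, the unit within which the assembler keeps related transcripts, with another unigene, while 3504 of the 71228 components held several. Reads shared with related MYB genes in other components cannot be seen in the tables.

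The other transcription factor unigenes that the study names, also picked from these libraries, are 6 WRKY, 3 AP2, 2 NAC and 2 MYC unigenes. Of these 13, 12 had a log2FC of at least 2 and 1, an AP2 unigene at -0.76, was between the thresholds. Their median log2FC was 3.33, beside 3.76 for the MYB unigenes, or 3.62 with c38669.graph_c0 at its lower bound. The families differed, with medians of 3.95 in WRKY, 2.25 in AP2, 2.34 in NAC and 3.88 in MYC. The MYC median was 3.01 with its unigene of 0 control reads at its bound. In the drought library the MYB unigenes ran from 5.12 to 562.69 TPM with a median of 26.0, and the other 13 from 6.14 to 666.49 TPM with a median of 69.5. In the control library the medians were 1.40 TPM for the MYB unigenes and 9.03 TPM for the other 13. Only the WRKY unigene c55976.graph_c0 exceeded c56737.graph_c0 in drought among these 13, and only the AP2 unigene c60139.graph_c1 exceeded it in control. The MYC unigene c67021.graph_c0 had a pattern like that of c38669.graph_c0, with 40 reads in drought and 0 in control.

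MYB factors are known as regulators of phenylpropanoid synthesis in other plants, and the study lists 8 unigenes under that pathway. The study also names 2 more peroxidase unigenes outside that list, both of which it reports as higher in drought. They were not used here, so the counts and the median below leave out 2 unigenes that rose. Of the 8, 3 had a log2FC of at least 2 and 5 of -2 or less, with a median of -2.50. Over all unigenes with reads these shares were 27.6% and 17.5%. The study had picked the 8 as differing between these same libraries. That all of them were past a threshold is therefore a description only. All 4 unigenes of cinnamyl-alcohol dehydrogenase (CAD), which makes the alcohols from which lignin is built, were lower in drought, between -2.74 and -2.45. Both unigenes counted here as peroxidase were higher, with log2FC values of 2.94 and 3.56, as was a caffeoyl-CoA O-methyltransferase unigene, with 2.22. The eighth, which is either a peroxidase or a caffeoyl-CoA O-methyltransferase unigene, since the list does not say which, had 0 drought reads and 19 control reads. The 8 listed unigenes thus did not share the single direction of the 5 MYB unigenes in these libraries. No link between any MYB unigene and these enzymes was measured.

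**Figure D5:**
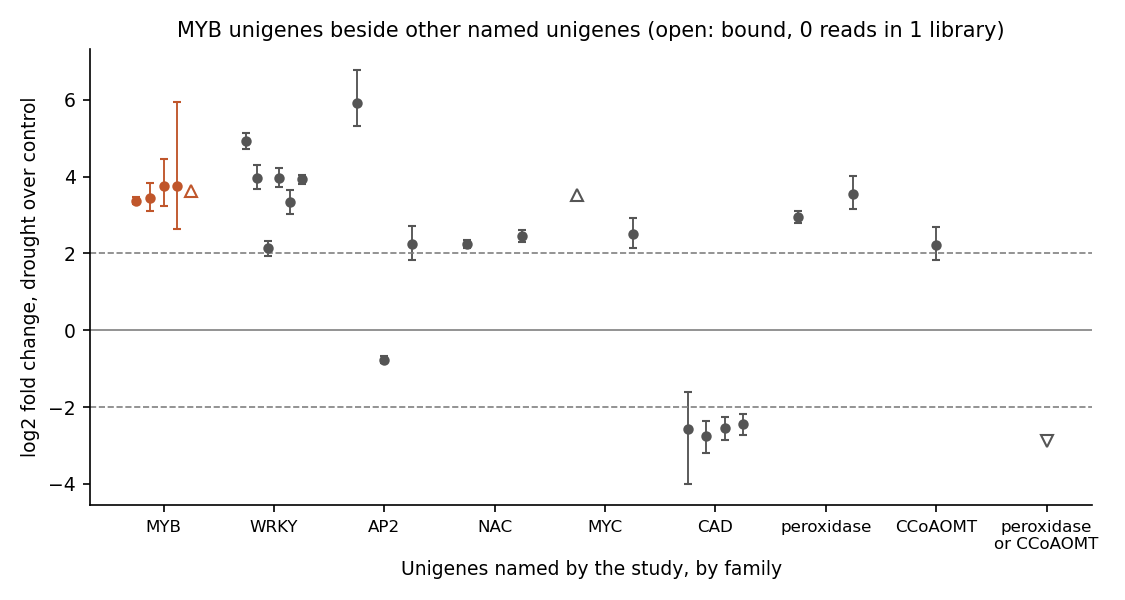
log2 fold change of drought over control for the MYB unigenes (orange) and the other unigenes the study names, by family, with 95% Clopper-Pearson intervals and dashed lines at 2 and -2. Open triangles are bounds against 3 reads for unigenes with 0 reads in a library. The 4 MYB unigenes with reads in both libraries lie between 3.38 and 3.77, and the CAD unigenes between -2.74 and -2.45. The MYB unigene c38669.graph_c0 is drawn at its lower bound of 3.62.

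The unigenes nearest to each MYB unigene in level were sought by the Euclidean distance over log2(TPM + 0.1) in the 2 libraries, which measures likeness over 2 points only. The nearest to c56737.graph_c0 was c54004.graph_c0, with 621.99 TPM in drought and 46.44 TPM in control (distance 0.145). For c57500.graph_c0 it was c57263.graph_c0, with 61.56 TPM in drought and 4.52 TPM in control, and for c61891.graph_c0 it was c53137.graph_c0, with 25.65 TPM in drought and 1.36 TPM in control. Within a distance of 0.5 there were 6 of 672 candidate unigenes around c56737.graph_c0, 31 of 9621 around c57500.graph_c0, 28 of 13180 around c61891.graph_c0, 127 of 21564 around c37958.graph_c0 and 402 of 26944 around c38669.graph_c0, the candidates being those with at least 0.5 times the reads of the member. The nearest to c37958.graph_c0 was c50345.graph_c0 (5.87 TPM in drought and 0.62 TPM in control) and the nearest to c38669.graph_c0 was c45452.graph_c0 (5.13 TPM in drought and 0 in control). The tables give no gene name for any of them.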

How the data were processed

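Leaf RNA was sequenced from 1 drought library and 1 control library. The authors filtered the paired reads, assembled both libraries together with Trinity and deposited, for each unigene and library, expected counts (estimated reads without normalization), TPM, FPKM and lengths. The deposited TPM values are scaled for effective length to the same total in each library, and the deposited FPKM values for effective length and library size. The notes of the submitters list Bowtie 0.12.2, Cufflinks and mm8, a mouse genome build, without their roles. The column names are those of RSEM. No source used here names the program that made the counts.

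Expected counts were rounded to whole reads. Of those above 0, 85.2% in drought and 83.3% in control were already whole, with no tolerance at the 2 decimals written. Scaling factors came from R 4.3.3, with edgeR 4.0.16 for TMM and upper-quartile factors and DESeq2 1.42.0 for median-of-ratios factors. Everything else was computed in Python 3.11.15 (NumPy 2.4.6, SciPy 1.17.1, pandas 2.3.3, matplotlib 3.10.9). The calculation was tried on simulated Poisson counts, with changes placed only in unigenes of higher read number. Changes in unigenes with as few reads as c37958.graph_c0 and c38669.graph_c0 were not simulated. With 1 library per condition no test of the condition exists, so no p-value is given and unigenes are described by fold size. The study used EBSeq, which was not run. No unigene was filtered out beyond those without reads in either library. A count of 0 was set to 3 reads for a bound.

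Named are the 5 MYB unigenes, unigenes of their Trinity components (there were none), 2 lists of unigenes the study names, and the unigene nearest to each in level among those with at least 0.5 times as many reads. The members and lists were chosen with earlier results of these data known. Single unigenes of the lists are named only for a value beside a MYB unigene, after their values were seen. The qRT-PCR and physiological measurements were not analysed here. The study ran its qRT-PCR with biological replicates and reports fold changes close to those of sequencing.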

Additional observations from a re-analysis of the deposited data

How the results depend on the processing

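All 5 MYB unigenes were past the log2FC threshold under each of the 12 alternatives run, which included thresholds of 1 and 3. None changed direction. The 5 had been picked by this contrast, and not every alternative could have removed one. A threshold of 1 and a minimum of 10 reads could exclude none of them. TMM on unigenes with at least 10 reads and TMM without the 10 most abundant unigenes shifted the log2 ratio by only -0.0031 and 9.7e-05. The log2FC ranged from 3.16 to 3.68 in c56737.graph_c0, 3.24 to 3.73 in c57500.graph_c0, 3.56 to 4.20 in c61891.graph_c0 and 3.03 to 4.04 in c37958.graph_c0. The bound of c38669.graph_c0 ran from 3.40 to 3.90, but it was computed for the scalings only. Its log2FC depended on the read added to its 0. It was 5.35 with 1 read, 3.16 with 5 reads and 11.96 with 0.01 reads. Among the unigenes with reads in both libraries, only c56737.graph_c0 left its counting interval, under upper-quartile factors, total reads, TPM and FPKM. A pseudocount of 5 reads brought the median of the 5 to 3.38, since it lowers unigenes with few reads most. The share of all unigenes past the threshold moved further. It was 4.06% with that pseudocount, 10.1% at a log2FC of at least 3 and 17.7% among unigenes with at least 10 reads. It was higher with total reads (33.7%), a pseudocount of 0.01 reads (34.8%), TPM (35.1%), FPKM (35.5%) and a log2FC of at least 1 (40.3%), against 27.6% as reported. With the lower bound of c38669.graph_c0, an alternative chosen after seeing the data, the median was 3.62. No paired analysis was possible because each condition has 1 library. Depth limits c37958.graph_c0, with 4 control reads, and c38669.graph_c0, with 0, and no alternative can stand in for the missing replicates.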
